A study of Mus musculus with 18 samples.

Results

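Spleen RNA of streptozotocin-treated mice that had received the microbiota of AOS-fed donors (A10-FMT) was compared with that of untreated control mice (Con). The comparison was chosen by group label and uses 6 of the 18 libraries of the series, 3 for each group. Both groups were ICR mice aged 10 weeks, and the methods describe males. Con mice had a regular diet plus saline. A10-FMT mice had 1 injection of STZ (streptozotocin), then oral inoculations of small-intestine content from donor mice dosed with alginate oligosaccharide (AOS, a seaweed sugar chain) at 10 mg/kg. The donor content was pooled, so the recipients share an inoculum. The comparison holds the STZ injection and the transplant together, and these cannot be told apart within it. The transplant from control donors (Con-FMT) and STZ alone are given beside a result where they bear on it. The labels do not say whether the 3 libraries of a group come from 3 mice, so p-values measure the spread between libraries of a group. That spread was estimated over all 18 libraries of the series.

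STZ kills insulin-producing beta cells of the pancreas and is used to model type 1 diabetes. The spleen filters blood in its red pulp, where macrophages take up old red cells and recycle their iron. Its white pulp holds B and T lymphocytes, placed there by chemokines. In mice the spleen also makes red cells, platelets and granulocytes throughout life, so a spleen library mixes RNA of lymphocytes, macrophages and blood cell precursors.

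Values are RPKM, that is, reads divided by gene length and by the mapped reads of the library. Differences are A10-FMT minus Con on log2(RPKM + 1), which understates the change of low genes. The test was limma with Benjamini-Hochberg adjustment over the 12358 genes at an RPKM of at least 1 in at least 3 of the 6 libraries, and a gene passed at an adjusted p under 0.05. Spleen identity genes were present in both groups. The values of Tlx1, the transcription factor that the spleen needs to form, were 12.2, 12.7 and 15.6 RPKM in Con and 12.3, 14.8 and 8.91 RPKM in A10-FMT, a log2 difference of -0.18. Nkx2-5, another factor of spleen formation, had a log2 difference of -0.36 and Spic, which red pulp macrophages need, one of -0.05. None of the 13 members of the spleen identity list passed the test.

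The libraries differed in ways that touch most results below. Globin transcripts took 27.7% ± 6.47 (SD, n = 3) of the summed RPKM in Con and 36.8% ± 7.56 (SD, n = 3) in A10-FMT. A10-FMT 3 had the largest globin share of the 18 libraries, 42.7%, and the fewest genes at 1 RPKM or more, 11532. A10-FMT 2 carried pancreas transcripts, and Con 2 testis transcripts, as given below. The median log2 difference of all tested genes was -0.177 as deposited and -0.000944 after the libraries were centred on their medians, so values are also given after centring. Differences were negative for 8691 of the 12358 tested genes as deposited and for 6197 after centring.

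One gene fell. Kap, the kidney androgen-regulated protein of kidney tubule cells, was at 13.3, 20.1 and 20.97 RPKM in Con and at 0.14, 0 and 0 RPKM in A10-FMT. Kap met the filter through Con alone, so its groups could not overlap. Its log2 difference was -4.17 (SE 0.173, adjusted p = 1.65e-09, limma), and -3.99 after centring. It was the only gene called, in either direction, of the 12358 tested (0.00809%). Kap lies at chr6:133849851-133853762 on the minus strand (GENCODE M21, GRCm38, the same build as mm10), and the table gives it as a whole gene. A stretch of 30 bases upstream of its RefSeq start that holds a TATA motif is shown because Kap carries the only call. The motif was chosen after the values were seen. The capitals mark TATAAA, which begins 31 bases before that start, on the strand of the gene. A longer GENCODE transcript starts farther upstream and includes these bases.

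Kap, chr6:133853678-133853707, minus strand, GRCm38.p6: tacaggatgTATAAAagcccaggaggactc

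TATAAA was found on either strand in the 250 bases before the start of 6.53% of the 9737 tested genes with a RefSeq promoter window. A match is only a description of the letters.

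Over the 6 groups, Kap split the libraries in a way that neither STZ nor the transplant alone follows. It was at 23.7, 25.95 and 20.9 RPKM in STZ, at or above most of Con. It was listed at 0 in all 3 Con-FMT libraries and all 3 libraries of A10 (AOS without STZ), and at 0.6, 0.3 and 0 RPKM in STZ-A10 (STZ with AOS). Kap was the only gene of the 9363 with a mean of at least 5 RPKM for which every Con and STZ library lay above all the other 12, and 0 genes showed the opposite. This split was looked for after the Kap values were seen. The difference between A10-FMT and Con-FMT for Kap was 0.06 (SE 0.173, adjusted p = 0.807, limma). Umod, the uromodulin of the kidney tubule, was low in Con, at 0.13, 0.03 and 0 RPKM. Slc34a1, its phosphate transporter, was at 0.27, 0.52 and 0.36 RPKM. Other markers of kidney, adrenal and gonad were not all low. With Kap, the 14 genes of this list summed to 42.06, 68.07 and 58.36 RPKM in Con. In A10-FMT they summed to 28.35, 26.99 and 14.97 RPKM. Of the 14 genes 5 were tested and Kap alone passed. All 5 had negative differences (all genes, 8691 of 12358). Among those 5, the log2 difference of Star, which carries cholesterol into mitochondria, was -0.38 and that of Cyp21a1, the adrenal steroid 21-hydroxylase, -0.63. The list median was -0.63. Whether kidney tissue was present in some libraries was not tested.

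**Figure D1:**
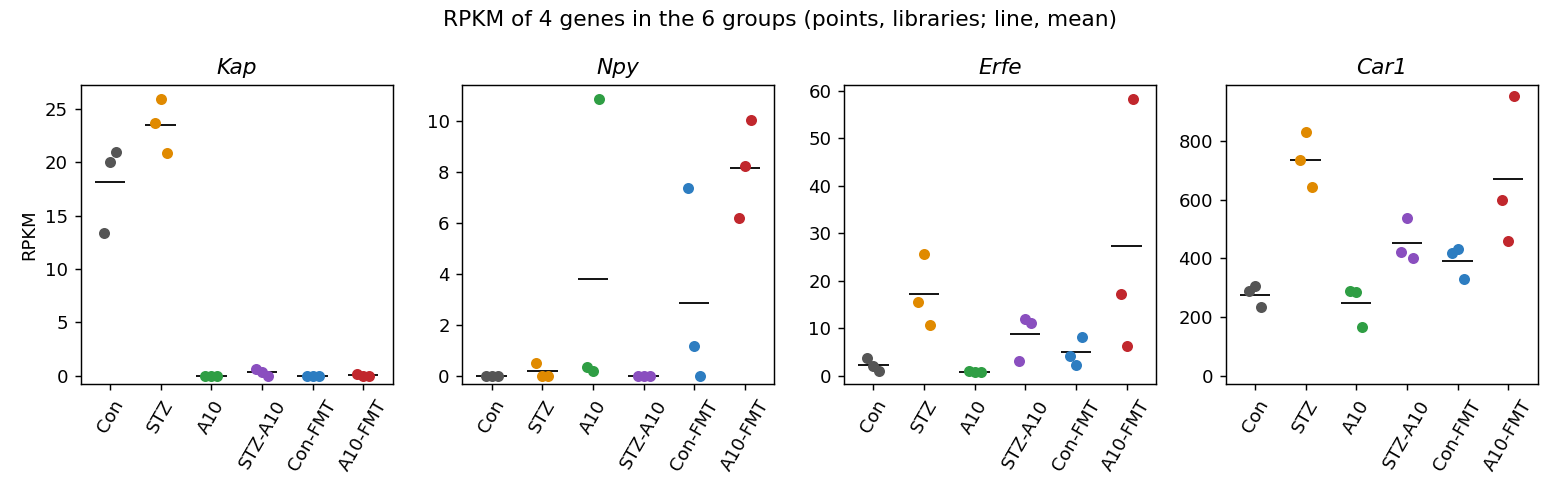
RPKM of Kap, Npy, Erfe and Car1 (y axes) in the 3 libraries (points) of each of the 6 groups (x axes), with the group mean as a line. Kap is between 13.3 and 25.95 RPKM in Con and STZ and at most 0.6 RPKM in the other 4 groups, while Car1 and Erfe are high in A10-FMT and also in STZ.

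Beyond Kap, many genes leaned the same way without passing. Unadjusted p-values fell under 0.05 for 636 genes with higher values in A10-FMT (5.15% of those tested) and for 2952 with lower values (23.9%). After median centring these were 1658 (13.4%) and 1428 (11.6%), so the excess of lower values depends on the scaling. They were 164 higher and 889 lower in a fit on only the 6 libraries. Without A10-FMT 3 they were 200 higher and 1049 lower. The groups did not overlap for 483 genes in the higher direction (3.91%) and for 1904 in the lower (15.4%). A looser threshold, an adjusted p under 0.1, let through 64 genes with higher (0.518%) and 432 with lower values (3.5%). The smallest adjusted p after Kap was 0.0536, so the count of calls is close to an edge. Without A10-FMT 2 it was 3313, of which 562 were higher and 2751 lower. The count was 38 without Con 3, 11 without Con 1, 5 without Con 2 and 2 without A10-FMT 3.

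Leading genes were picked among those whose groups do not overlap, so the lack of overlap in them is not a result. Those of the higher direction did not pass the test. Ier3, a stress-induced regulator of cell survival, was at 4.28, 4.46 and 4.54 RPKM in Con and 8.20, 12.2 and 8.92 RPKM in A10-FMT, with no overlap. Its log2 difference was 0.97 (SE 0.168, adjusted p = 0.0536, limma). Ier3 was also above every Con library in STZ, at 9.71, 15 and 11.6 RPKM, and in Con-FMT, at 5.75, 6.82 and 8.63 RPKM. Car1, the carbonic anhydrase of red cells, was at 288, 304 and 233 RPKM in Con and 600, 460 and 952 RPKM in A10-FMT, a log2 difference of 1.23 (SE 0.249, adjusted p = 0.0604, limma). Erfe encodes erythroferrone, the hormone by which erythroblasts lower hepcidin and so raise iron supply. It was at 3.68, 1.93 and 0.98 RPKM in Con and at 17.1, 6.30 and 58.4 RPKM in A10-FMT. The groups did not overlap, but the A10-FMT libraries spread widely, and the log2 difference was 2.73 (SE 0.630, adjusted p = 0.0745, limma). These red cell genes were also high in STZ, where Erfe was at 15.5, 25.7 and 10.7 RPKM and Car1 at 734, 829 and 643 RPKM. In Con-FMT, Erfe was at 4.24, 2.23 and 8.18 RPKM and Car1 at 417, 431 and 328 RPKM.

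Npy, which encodes the transmitter neuropeptide Y, was listed at 0 in all 3 Con libraries and was at 6.20, 8.23 and 10.0 RPKM in A10-FMT. Its log2 difference of 3.17 (SE 0.736, adjusted p = 0.0745, limma) depends on the pseudocount, since Con was at 0. Npy met the filter through A10-FMT alone, so its groups could not overlap. High values of Npy were not particular to A10-FMT: A10 3 was at 10.9 RPKM and Con-FMT 1 at 7.37 RPKM, with other libraries of those groups at 0 to 1.16 RPKM. The other 4 leading genes had smaller differences. Nhp2, a protein of the small RNA particles that guide pseudouridylation, was at 59.0, 52.1 and 45.9 RPKM in Con and 78.3, 70.4 and 99.0 RPKM in A10-FMT, a log2 difference of 0.64. The remaining differences were 0.57 for Dtwd1, a tRNA-modifying enzyme, 0.68 for Hpn, the membrane protease hepsin, and 0.41 for Mrpl14, a mitochondrial ribosomal protein. Their adjusted p lay between 0.0706 and 0.0745 (limma). In STZ and Con-FMT, Nhp2, Dtwd1 and Hpn also lay above every Con library, while Mrpl14 did so in Con-FMT but not in STZ. Ier3 lies at chr17:35821684-35822923, Car1 at chr3:14766216-14808368, Erfe at chr1:91366430-91374217 and Npy at chr6:49822710-49829507 in the same annotation.

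**Figure D2:**
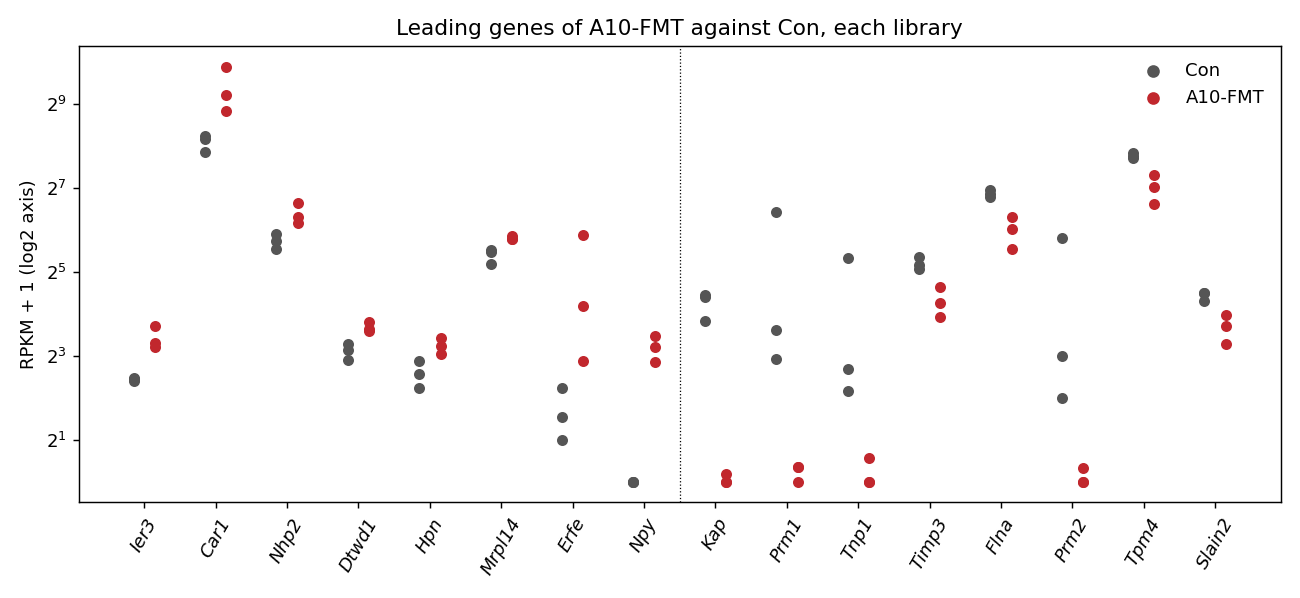
RPKM + 1 on a log2 axis for the 8 genes that led each direction (x axis), each point a library, Con in grey and A10-FMT in red; the dotted line parts higher from lower. The 16 genes were picked among those whose groups do not overlap, and Kap alone passed the test.

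Of the leading genes with lower values in A10-FMT, Timp3, Flna, Tpm4 and Slain2 varied less within Con than within A10-FMT. Timp3, an inhibitor of matrix metalloproteases, was at 34.9, 32.6 and 39.9 RPKM in Con and 18.2, 23.9 and 14.3 RPKM in A10-FMT. Its log2 difference was -0.92 (SE 0.152, adjusted p = 0.0536, limma). Flna, the actin crosslinker filamin A, was at 115, 110 and 122 RPKM in Con and 64.2, 78.6 and 46.1 RPKM in A10-FMT, a log2 difference of -0.90 (SE 0.156, adjusted p = 0.0536, limma). For Tpm4, a tropomyosin of platelets and other non-muscle cells, the mean was 218 RPKM ± 9.47 (SD, n = 3) in Con and 128 RPKM ± 29.5 (SD, n = 3) in A10-FMT. Slain2, which promotes microtubule growth, was at 20.7 RPKM ± 1.65 in Con and 11.9 RPKM ± 3.02 in A10-FMT (SD, n = 3 each). The log2 differences of Tpm4 and Slain2 were -0.79 and -0.78, and -0.61 and -0.60 after centring. Values below Con were not particular to A10-FMT. Timp3 was at 24.28, 21.12 and 26.85 RPKM in STZ and 24.23, 27.01 and 22.33 RPKM in Con-FMT. In A10 it was at 21.96, 26.94 and 23.9 RPKM. Every library of STZ, Con-FMT, A10 and STZ-A10 lay below every Con library for Timp3, Flna and Tpm4. The same held for Slain2 except in A10 3, at 19.02 RPKM beside 18.81 RPKM in Con 2. Timp3 lies at chr10:86300372-86349506 and Flna at chrX:74223461-74249820.

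The other leading genes with lower values, Prm1, Prm2 and Tnp1, encode the small basic proteins that pack sperm DNA. Prm1 was at 11.3, 85.6 and 6.56 RPKM in Con and 0.27, 0.27 and 0 RPKM in A10-FMT, a log2 difference of -4.09 (SE 0.656, adjusted p = 0.0536, limma). The log2 differences of Tnp1 and Prm2 were -3.21 and -3.49 with the same adjusted p. Con 2 held most of this signal, with a sum over the 24 testis germ cell genes of 347 RPKM, beside 44.9 and 26.6 RPKM in Con 1 and Con 3 and 5.63 to 8.59 RPKM in A10-FMT. Of the 24 genes 7 were tested, and the groups did not overlap for 4, all lower (all genes, 15.4%). Prm1, Prm2 and Tnp1 were under 1 RPKM in every A10-FMT library. They met the filter through Con alone, so their groups could not overlap, and the share of all genes is no measure for them. The list median was -3.21, and -2.24 without Con 2. None passed with all libraries. The members that passed were 4 without Con 2 (all genes, 5 of 12358) and 4 without Con 3 (38 of 12358). They were 4 without A10-FMT 2 (3313 of 12358) and 2 without Con 1 (11 of 12358). The filter limits these counts in the same way, so they are no added support. Prm1 was at 0 to 1.06 RPKM in Con-FMT and at 4.24, 0.55 and 2.74 RPKM in STZ. The part of testis RNA in this result was not tested.

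Platelet and megakaryocyte genes mostly had lower values in A10-FMT. Megakaryocytes shed platelets and carry the receptors and granule proteins of clotting. In bulk tissue, fewer cells of a type and less RNA per cell cannot be told apart. Of the 35 tested members, 0 passed, 29 had lower values at an unadjusted p under 0.05 (all genes, 23.9%), and the groups did not overlap for 25, all lower (all genes, 15.4%). The list median was -0.82, and -0.65 after centring. Pf4, platelet factor 4, was at 897, 451 and 325 RPKM in Con and 281, 290 and 231 RPKM in A10-FMT, a log2 difference of -0.93. Con 1 was the highest library and Con 3 lay just above A10-FMT. Ppbp, the precursor of a platelet chemokine, was at 754, 416 and 341 RPKM in Con and 258, 298 and 214 RPKM in A10-FMT. Itga2b, the fibrinogen receptor subunit, did overlap, with 77.3, 39.8 and 25.6 RPKM in Con and 26.8, 30.6 and 17.7 RPKM in A10-FMT. Gp1ba, part of the receptor for von Willebrand factor, was at 21.6, 10.8 and 9.89 RPKM in Con and 5.76, 6.61 and 5.69 RPKM in A10-FMT, a log2 difference of -1.02. Without Con 1 the list median was -0.53, and the members with lower values at an unadjusted p under 0.05 numbered 11. Without A10-FMT 3 they numbered 19 and without A10-FMT 2 15 members passed the test (all genes, 3313 of 12358).

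Measured as the median of its members relative to the Con mean, the platelet list was at 0.64, -0.13 and -0.48 in the Con libraries and -0.72, -0.66 and -0.95 in A10-FMT. It was at -0.60, -0.41 and -0.83 in Con-FMT and -1.55, -1.73 and -0.61 in STZ, so low levels were not limited to A10-FMT. The median difference between A10-FMT and Con-FMT over the list was -0.14, beside -0.163 over all genes.

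The promoters of platelet receptor genes are shown because these members had lower values together. GATAA is the core of the motif bound by GATA factors, which megakaryocytes and red cell precursors use. It was searched on both strands (GATAA or TTATC) in the 250 bases before the RefSeq start and is in capitals. The genes are the first 3 of the list whose window holds it, and the motif was chosen after the values were seen.

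Gp1ba, chr11:70638872-70639121, plus strand, GRCm38.p6: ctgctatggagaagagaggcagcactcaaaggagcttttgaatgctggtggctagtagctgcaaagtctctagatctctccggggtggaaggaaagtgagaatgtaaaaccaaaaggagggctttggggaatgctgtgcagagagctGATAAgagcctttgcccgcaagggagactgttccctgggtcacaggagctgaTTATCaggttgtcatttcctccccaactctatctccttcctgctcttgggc

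Gp9, chr6:87777820-87778069, plus strand, GRCm38.p6: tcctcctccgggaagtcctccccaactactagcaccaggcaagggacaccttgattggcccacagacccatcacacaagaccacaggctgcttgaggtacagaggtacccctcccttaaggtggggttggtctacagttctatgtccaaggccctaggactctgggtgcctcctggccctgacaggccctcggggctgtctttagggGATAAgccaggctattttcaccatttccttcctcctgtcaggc

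Gp5, chr16:30310782-30311031, minus strand, GRCm38.p6: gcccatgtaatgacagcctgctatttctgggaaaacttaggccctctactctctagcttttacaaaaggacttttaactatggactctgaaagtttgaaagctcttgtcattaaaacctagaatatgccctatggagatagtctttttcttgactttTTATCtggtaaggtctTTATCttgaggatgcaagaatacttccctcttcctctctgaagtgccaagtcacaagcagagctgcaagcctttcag

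GATAA was present in 11 of the 28 tested platelet genes with a window (39.3%) and in 11 of 19 erythroid genes (57.9%), beside 15.3% of the 9737 tested genes with one. Both lists hold it, and a match is only a description of the letters. Its part in the values of either list was not tested.

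NK and cytotoxic genes also separated the groups. Natural killer cells kill infected cells with granzymes and perforin. Of the 14 tested members, 0 passed, 11 had lower values at an unadjusted p under 0.05 (all genes, 23.9%), and the groups did not overlap for 10, all lower (all genes, 15.4%). After centring, 9 had lower values at an unadjusted p under 0.05 (all genes, 11.6%). The list median was -0.80 as deposited, -0.62 after centring and -0.56 without A10-FMT 3. Gzma, the protease granzyme A, was at 27.2, 35.8 and 52.8 RPKM in Con and 18.4, 13.4 and 14.01 RPKM in A10-FMT, a log2 difference of -1.25. Ncr1, an activating receptor of natural killer cells, was at 8.14, 8.49 and 12.6 RPKM in Con and 5.35, 4.44 and 3.11 RPKM in A10-FMT, a log2 difference of -1.02. Klrb1c, the NK1.1 receptor, had a log2 difference of -0.63 and Klrk1, the receptor NKG2D, one of -0.47 with overlapping groups. In the libraries, the list stood at -0.70, -0.47 and -1.34 in A10-FMT, -0.09, -0.25 and -0.18 in Con-FMT, and -0.18, -0.71 and -0.50 in STZ. Without A10-FMT 2, 10 members passed (all genes, 3313 of 12358).

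Matrix and smooth muscle genes, the frame of the splenic capsule and trabeculae, had 24 tested members. None passed, 15 had lower values at an unadjusted p under 0.05 (all genes, 23.9%), and the groups did not overlap for 11, all lower (all genes, 15.4%). After centring the 15 became 8 (all genes, 11.6%). The median was -0.55, and -0.38 after centring. Col3a1, a fibrillar collagen chain, was at 30.95, 38.7 and 32.5 RPKM in Con and 16.2, 29.5 and 14.98 RPKM in A10-FMT. A10-FMT 2 lay close to Con. Col1a1 and Col1a2, the chains of type I collagen, had log2 differences of -0.73 and -0.69 with overlapping groups. Without 1 library at a time, the members with lower values at an unadjusted p under 0.05 numbered 7 (without A10-FMT 3) to 16 (without A10-FMT 2). Without A10-FMT 2, 13 passed (all genes, 3313 of 12358).

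Lymphocyte genes had lower values mainly through 1 library. All 19 tested B cell genes and all 27 tested T cell genes had negative differences (all genes, 8691 of 12358). The medians were -0.69 and -0.67. The groups overlapped for every member, and 1 T cell gene turned positive after centring. Ms4a1, the B cell membrane protein CD20, was at 180, 241 and 355 RPKM in Con and 198, 229 and 74.4 RPKM in A10-FMT. A10-FMT 3 was far below, and A10-FMT 1 and A10-FMT 2 lay within Con. Cd3e, a chain of the T cell receptor complex, was at 17.3, 29.2 and 34.04 RPKM in Con and 15.98, 24.3 and 4.96 RPKM in A10-FMT. Without A10-FMT 3 the medians were -0.18 for B cells and -0.22 for T cells, and 0 members of either list had an unadjusted p under 0.05. With all libraries those were 9 and 14, all lower (all genes, 23.9%), and 4 and 10 after centring (all genes, 11.6%). The uncentred counts were 0 and 4 without Con 3, and 3 and 3 without Con 2. Without A10-FMT 2 the medians were -1 and -1.04, and 11 B cell and 22 T cell genes passed (all genes, 3313 of 12358). The log2 differences of Ms4a1 and Cd79a, a subunit of the B cell receptor, were -0.73 and -0.69, and those of Cd3d and Cd3g, also T cell receptor chains, -0.96 and -0.89. A10-FMT 3 is also the library with the largest globin share, and the part of that in these values was not tested.

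MHC class II genes, by which B cells and macrophages present antigen, and white pulp chemokine genes, taken as lists, were also lowest in A10-FMT 3 among the 6 libraries. Of 11 MHC class II and 15 chemokine genes, all had negative differences (all genes, 8691 of 12358), and 1 chemokine gene turned positive after centring. The medians were -0.58 and -0.64, and -0.10 and -0.18 without A10-FMT 3. Without A10-FMT 2 the medians were -0.85 and -0.89, and 4 MHC class II and 8 chemokine genes passed (all genes, 3313 of 12358). The groups overlapped for all MHC class II genes and did not for 2 of the 15 chemokine genes, both lower, a share near that of all genes (15.4% lower). H2-Aa was at 1548, 1930 and 2790 RPKM in Con and 1778, 2128 and 734 RPKM in A10-FMT. H2-Ab1 had a log2 difference of -0.44. H2-Eb1 had one of -1.60, with 248, 180 and 12.5 RPKM in A10-FMT beside 242, 269 and 258 RPKM in Con. Cxcl13, which draws B cells into follicles, was at 166, 251 and 280 RPKM in Con and 182, 189 and 41.6 RPKM in A10-FMT. Ccl19, a ligand of the T zone receptor Ccr7, had a log2 difference of -0.75. The plasma cell list had a median of -0.17 over 13 genes, 0.00348 after centring, with log2 differences of -0.26 for Sdc1, -0.23 for Prdm1 and -0.55 for Irf4.

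**Figure D3:**
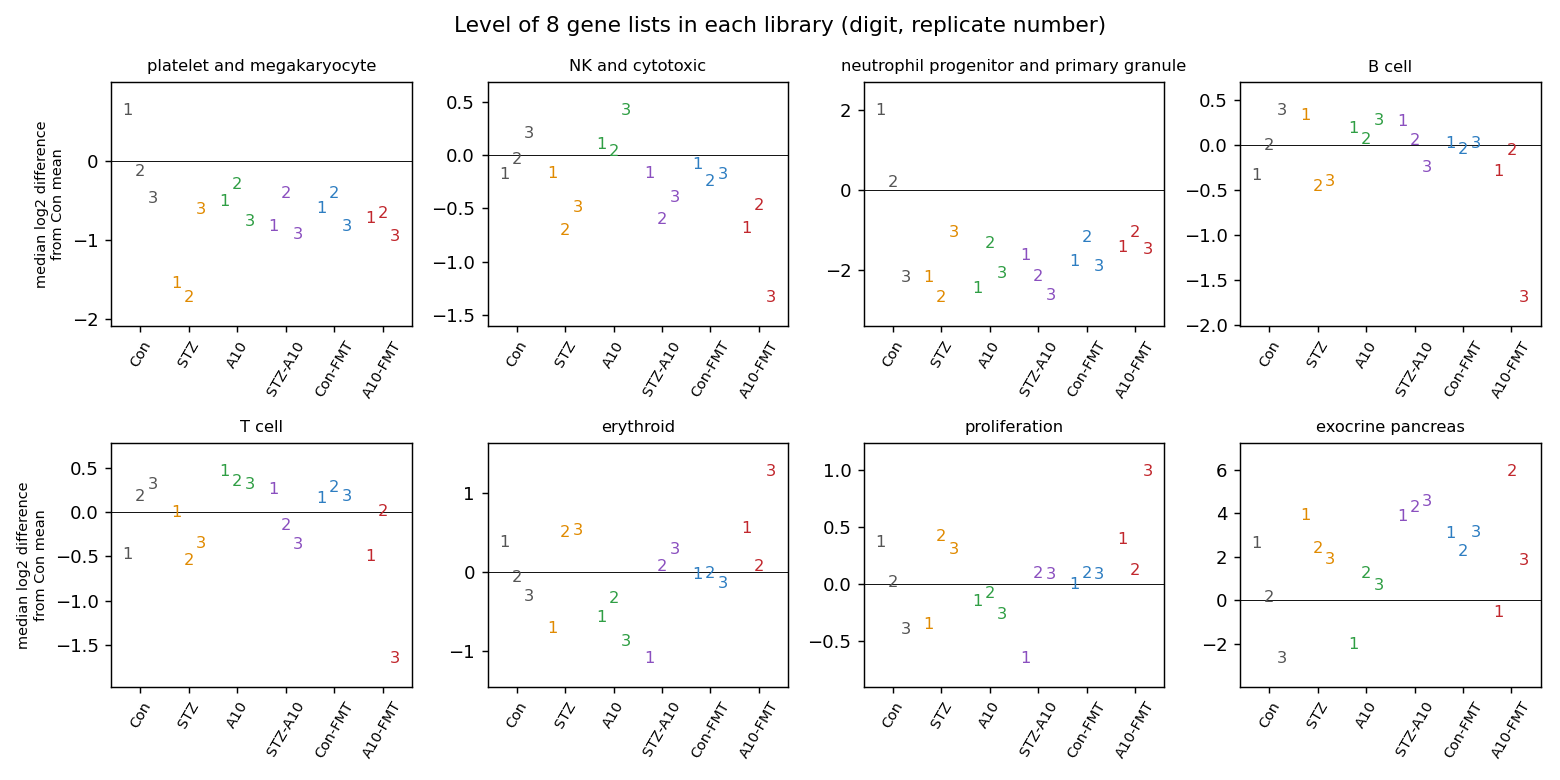
Median over the tested members of 8 gene lists of the log2 difference from the Con mean (y axes), for each library (digit, replicate number) of the 6 groups (x axes). In the B and T cell lists A10-FMT 3 lies far below the other 17 libraries, at -1.70 and -1.65, and in the neutrophil list Con 1 and Con 2 lie above the rest.

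Neutrophil precursor genes varied widely within Con. All 17 tested members had negative differences (all genes, 8691 of 12358), with a median of -1.30, but the groups overlapped for each. Mpo, the peroxidase of primary granules, was at 198, 62.3 and 10.6 RPKM in Con and 17.4, 25.8 and 18.9 RPKM in A10-FMT. Con 1 was highest and Con 3 was below all A10-FMT libraries. Elane and Prtn3, the granule proteases, had log2 differences of -1.19 and -1.30. The list median was -0.51 without Con 1 and -2.47 without Con 3.

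Erythroid genes leaned the other way. All 29 tested members had positive differences, with a median of 0.62 (0.79 after centring), but none passed, 4 had an unadjusted p under 0.05 (all genes, 5.15% higher), and Car1 alone did not overlap, a share near that of all genes (3.91% higher). Tfrc, the transferrin receptor, was at 180, 120 and 104 RPKM in Con and 211, 140 and 497 RPKM in A10-FMT. Gata1 and Klf1, the transcription factors of red cell formation, had log2 differences of 0.54 and 0.63. The list level was 0.37, -0.06 and -0.31 in Con and 0.55, 0.06 and 1.27 in A10-FMT, so A10-FMT 3 was highest and A10-FMT 2 lay within Con. Without A10-FMT 3 the median was 0.30, and without A10-FMT 2 it was 0.90 and 4 members passed (all genes, 3313 of 12358). Between A10-FMT and Con-FMT the median difference was 0.73. Of the 6 tested globin genes, the median was 0.61, but -0.07 after quantile normalization. Hba-a1 and Hba-a2, the near-identical alpha globin genes whose reads may be split between them, had log2 differences of 0.55 and 0.80. Quantile normalization gives a rank the same value in every library and left Hba-a1 at a difference of 0. The globin median after it is therefore no test of a globin difference. Hbb-bs, a beta globin gene, ranged from 976 to 54525 RPKM within A10-FMT, with a log2 difference of -0.07.

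Proliferation genes followed the erythroid list. All 30 had positive differences (median 0.50, 0.67 after centring), 10 at an unadjusted p under 0.05 (all genes, 5.15% higher). The groups did not overlap for 2, Mcm6 and Tyms, a share near that of all genes (3.91% higher). Mcm6, part of the helicase that opens DNA for replication, was at 96.3, 90.9 and 66.0 RPKM in Con and 112, 98.3 and 208 RPKM in A10-FMT. Mki67, the marker detected by Ki67 antibodies, was at 192, 145 and 121 RPKM in Con and 203, 147 and 341 RPKM in A10-FMT. The log2 differences of Top2a, the topoisomerase of dividing cells, and Pcna, the replication clamp, were 0.36 and 0.56. Without A10-FMT 3 the median was 0.25 and 0 members had an unadjusted p under 0.05, and without Con 3 the median was 0.29 and again 0 did. Without A10-FMT 2, 9 members passed (all genes, 3313 of 12358).

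Oxidative phosphorylation genes had small positive differences. Of the 32 tested, 29 were higher, 9 at an unadjusted p under 0.05 (all genes, 5.15%; after centring, 22 beside 13.4%), with a median of 0.19 (0.36 after centring). Without Con 3 those at an unadjusted p under 0.05 were 2 and the median 0.09. Without A10-FMT 2 they were 15, of which 11 passed (all genes, 3313 of 12358). The groups did not overlap for 3 (all genes, 3.91%), among them Ndufs3, a core subunit of complex I, at 74.6, 73.1 and 63.7 RPKM in Con and 88.6, 81.1 and 96.6 RPKM in A10-FMT. Ndufa1, Ndufa2 and Ndufa4, further respiratory chain subunits, had log2 differences of 0.13, 0.11 and 0.14. The 38 cytosolic ribosomal protein genes had a median of 0.05, which became 0.23 after centring and -0.00122 after quantile normalization, so no direction is given. The log2 differences of Rpl3, Rpl4 and Rpl5 were 0.15, 0.05 and -0.09.

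**Figure D4:**
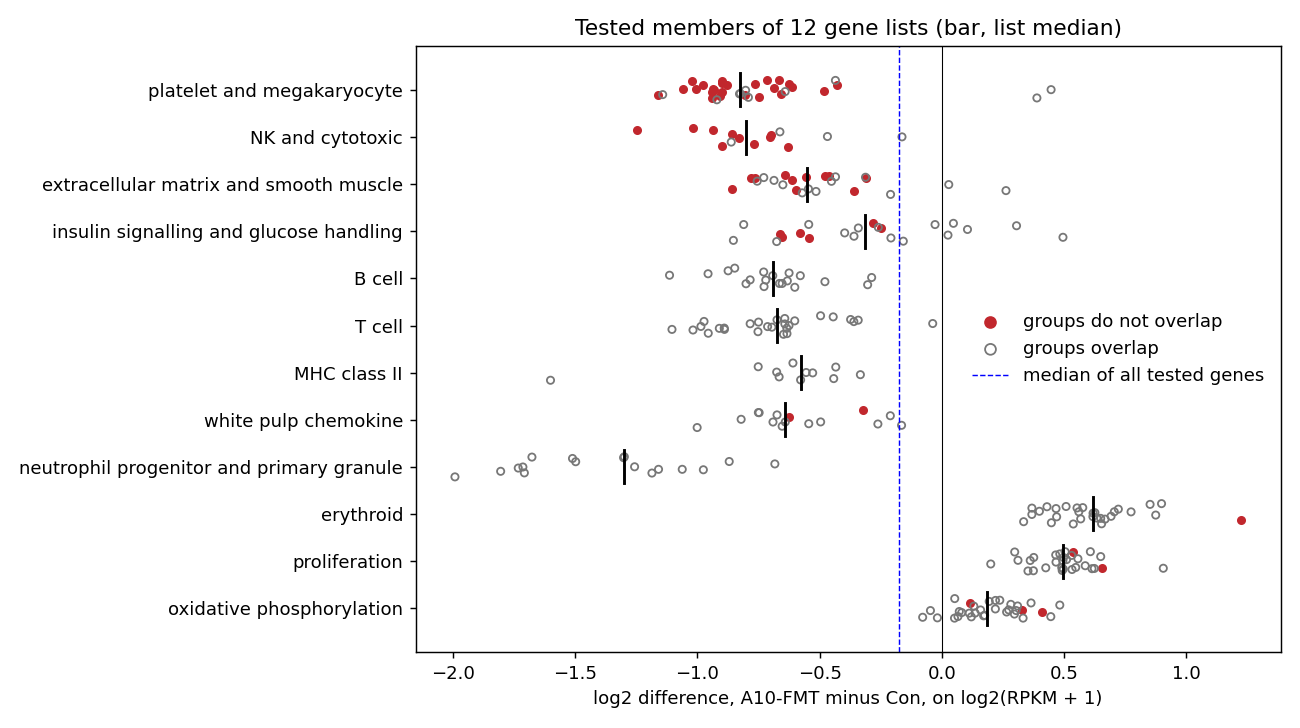
Log2 difference, A10-FMT minus Con on log2(RPKM + 1) (x axis), of each tested member of 12 gene lists (y axis); red points are genes whose groups do not overlap, black bars list medians, and the dashed line the median of all tested genes, -0.177. The platelet and NK lists hold mostly red points left of the line, while B cell, T cell and neutrophil points are open.

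Genes of insulin signalling and glucose handling were examined because STZ damages the cells that make insulin. Of the 22 tested, 0 passed, 10 had lower values at an unadjusted p under 0.05 (all genes, 23.9%), and the groups did not overlap for 6, all lower (all genes, 15.4%). The median was -0.31, -0.14 after centring, -0.18 without A10-FMT 3, -0.21 without Con 3 and -0.47 without A10-FMT 2, when 9 members passed (all genes, 3313 of 12358). Slc2a3, a glucose transporter of blood cells, was at 33.2, 22.5 and 20.7 RPKM in Con and 15.4, 15.95 and 15.1 RPKM in A10-FMT, a log2 difference of -0.66. Pkm, the pyruvate kinase of glycolysis, was at 240, 193 and 171 RPKM in Con and 133, 165 and 90.3 RPKM in A10-FMT. Insr, the insulin receptor, had a log2 difference of -0.40, Irs2, its adaptor, one of 0.11 and the kinase Akt1 one of -0.16, which became 0.02 after centring. Among 19 genes of fatty acid oxidation and ketone use the median was 0.00533. The carnitine palmitoyltransferases Cpt1a, Cpt1b and Cpt2 had log2 differences of -0.05, -0.26 and -0.13, of which Cpt1a and Cpt2 turn positive after centring.

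Red pulp macrophage genes were close to Con, with a median of -0.04 over 27 members, 0.13 after centring. Vcam1, an adhesion molecule of these macrophages, had a log2 difference of -0.04. Cd163, the scavenger receptor for haemoglobin, was at 1.28, 1.42 and 1.28 RPKM in Con and 1.66, 1.57 and 1.98 RPKM in A10-FMT. Its groups did not overlap, with a log2 difference of 0.23 (adjusted p = 0.466, limma). Slc40a1, the iron exporter ferroportin, was at 59.4, 59.6 and 81.2 RPKM in Con and 52.8, 52.9 and 53.6 RPKM in A10-FMT. The complement list had a median of -0.40 over 21 genes, 9 of them lower at an unadjusted p under 0.05 (all genes, 23.9%). The median was -0.22 after centring, -0.70 without Con 1 and -0.25 without Con 2, and without A10-FMT 2 8 members passed (all genes, 3313 of 12358). Its first members C1qa, C1qb and C1qc, the chains of C1q made by macrophages, had log2 differences of 0.01, 0.08 and 0.04. Itgb2, the shared chain of the leukocyte integrins, was at 98.2, 92.1 and 102 RPKM in Con and 60.8, 73.5 and 45.1 RPKM in A10-FMT.

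The transcripts of 6 proteins that the study stained or blotted were listed, and none passed. Bcl-xl, also blotted, was not on the list. Ccl21a, the chemokine of the T zone, was at 575, 1115 and 707 RPKM in Con and 788, 1051 and 317 RPKM in A10-FMT. Its log2 difference was -0.26 (adjusted p = 0.652, limma), and it turned to 0.25 without A10-FMT 3 and to 0.0073 without Con 2. Ccr7, its receptor, had a log2 difference of -0.67 (adjusted p = 0.203, limma) and Mki67 one of 0.53 (adjusted p = 0.322, limma). Trp53, the tumour suppressor p53, was at 70.9, 81.1 and 90.5 RPKM in Con and 88.8, 83.2 and 91.4 RPKM in A10-FMT (log2 difference 0.12, adjusted p = 0.499, limma). Bax, its proapoptotic target, was at 67.5, 72.5 and 62.2 RPKM in Con and 79.1, 82.1 and 64.3 RPKM in A10-FMT (log2 difference 0.15, adjusted p = 0.378, limma). Within the p53 target list of 22, whose median was -0.12 (0.06 after centring), Cdkn1a, the cell cycle inhibitor p21, was at 8.01, 8.61 and 7.12 RPKM in Con and 12.2, 9.73 and 16.2 RPKM in A10-FMT. Mdm2, the ligase that degrades p53, had a log2 difference of -0.23.

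Stress and signalling lists had medians between -0.28 and -0.00110, with a few members apart. Mt2, a metallothionein that binds zinc and responds to glucocorticoids, was at 104, 80.6 and 57.4 RPKM in Con and 151, 123 and 367 RPKM in A10-FMT. Mt1 was at 145, 111 and 78.3 RPKM in Con and 160, 156 and 269 RPKM in A10-FMT. They were the only 2 of the 16 tested glucocorticoid genes whose groups did not overlap (all genes, 3.91% higher). Neither passed the test, and both were highest in A10-FMT 3. The other glucocorticoid targets Tsc22d3, Fkbp5 and Per1 had log2 differences of -0.28, 0.14 and 0.10, and the list median was -0.10 (0.07 after centring). Isg15, an interferon-induced ubiquitin-like protein, was at 129, 91.9 and 59.2 RPKM in Con and 172, 144 and 465 RPKM in A10-FMT. The interferon list as a whole had a median of -0.21 (-0.03 after centring, 0.00259 after quantile normalization), with log2 differences of 0.12, -0.21 and -0.22 for Ifit1, Ifit2 and Ifit3. Circadian clock genes had a median of -0.28, with -0.51 for Arntl and -0.32 for Clock, but -0.0148 without A10-FMT 3. Immediate early genes had a median of -0.10 and heat shock genes one of -0.00110, both positive after centring. Log2 differences were 0.61 for Fos, -0.21 for Fosl2 and -0.15 for Jun, and -0.39, -0.47 and 0.09 for the chaperones Hspa1a, Hspa1b and Hspa8.

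Transcripts of neighbouring tissues differed between single libraries. The 32 exocrine pancreas genes summed to 2853, 467 and 40.8 RPKM in Con and to 255, 31720 and 1665 RPKM in A10-FMT. A10-FMT 2 was the highest of the 18 libraries, the next being 13450 RPKM. All 30 tested members had positive differences, with a median of 2.31, and of 0.49 without A10-FMT 2, and the groups overlapped for each. The trypsinogens Prss2, Try4 and Try5 had log2 differences of 2.68, 3.37 and 3.60. Reg1 and Reg2, made by pancreatic acinar cells, had log2 differences of 2.41 and 0.51. None of the 14 endocrine pancreas genes was tested. Ins2, an insulin gene, was listed at 0 in Con and was at 0.21, 19.97 and 1.58 RPKM in A10-FMT, highest in the library with the most pancreas transcripts.

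Liver genes had a median of 0.22 over 40 members, -0.46 without Con 1 and -0.09 without A10-FMT 3. Alb, serum albumin, was at 7.59, 105 and 98.0 RPKM in Con and 42.3, 32.6 and 175 RPKM in A10-FMT. The apolipoproteins Apoa1 and Apoa2 had log2 differences of -0.05 and 0.69. Mup7, a major urinary protein, was at 5.15, 59.8 and 48.6 RPKM in Con and 0.13, 2.54 and 0.46 RPKM in A10-FMT, a log2 difference of -3.88 with no overlap. It belongs to a family of near-identical genes, among which reads may be split. Adipose genes had negative differences for all 11 tested, 10 of them also after centring, with a median of -0.65, and -0.89, -0.69 and -0.58 for Adipoq, Cidec and Fabp4. Of the muscle genes only Mylpf, Tnni2 and Tnnt2 were tested, with log2 differences of 0.67, -0.52 and -0.52.

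Against Con-FMT, which shares STZ and the transplant procedure but not the AOS donors, A10-FMT had 0 genes called by limma, 2641 without A10-FMT 2 and 12 without Con 1. Its unadjusted p-values fell under 0.05 for 439 genes with higher values (3.55%) and 2522 with lower (20.4%). These were 104 and 346 without A10-FMT 3, and 1271 and 1123 after median centring, so they depend on that library and on the scaling. The uncentred median differences against Con-FMT were 0.73 for erythroid, 0.47 for proliferation, -0.70 for B cell, -0.88 for T cell and -0.64 for NK genes, beside -0.163 over all genes. Among lists of other tissues they were 1.52 for liver, -0.445 for exocrine pancreas and -1.7 for the 2 tested Reg genes. The Con-FMT comparison uses the same 3 A10-FMT libraries, so these values are not independent of those against Con.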

How the data were processed

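The deposited values are RPKM per gene, which the authors computed from spleen RNA-seq reads. The methods name SOAPaligner, and the submitters' processing notes name Bowtie 0.12.2 and mm10. No counts were available, so a count test was not used. Values of low single-transcript genes cluster at a step that, if it is 1 read, puts the 6 libraries at 10300000 to 11800000 reads. It is an estimate, and no interval was built on it. Of 19326 lines, 6 that carry 3 repeated names were left out. Samples were grouped by the label of treatment. limma 3.58.1 (trend, R 4.3.3) was fitted to log2(RPKM + 1) of all 18 libraries with a term for each of the 6 groups, on genes at an RPKM of at least 1 in at least 3 of the 6 libraries. P-values are two-sided with Benjamini-Hochberg adjustment, at a threshold of 0.05. The fit was tested on simulated data. Named genes were the 8 leading each direction (no overlap, mean of at least 5 RPKM in the higher group), the first 3 tested of each of 34 lists and 6 of the proteins the study stained or blotted. A result for 1 of these genes is not reported here. Others, named for their lack of overlap or their values, were chosen after these were seen. The comparison and the lists were chosen with earlier results of these data known. Replicate numbers were not used as pairs. After the group mean of each gene was taken out, same-numbered A10-FMT and Con libraries correlated at -0.389, 0.12 and -0.254. With 3 libraries in a group, these values cannot show or exclude pairing.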

Additional observations from a re-analysis of the deposited data

How the results depend on the processing

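Kap passed the test under every alternative that kept it (log2 differences of -7.06 to -3.99); it is not among the genes at 1 RPKM in all 6 libraries. The count of genes called, 1 as reported, was 14 after quantile normalization, 11 after median centring, 7 without a filter on low values, 0 with an RPKM of at least 1 in all 6 libraries, 11 with a pseudocount of 0.1, 9 without the trend and 2 with only the 6 libraries. It was 11293 with array weights, whose estimate did not converge, so this fit is not a usable count. Among listed genes the count, also 1, was 6, 4, 2, 0, 5, 5 and 539 in the same order without the 6-library fit. RPKM rescaled without the globin genes, an alternative chosen after seeing the data, gave 314 genes and 19 listed genes. With each library left out, 1 to 3313 genes and 1 to 160 listed genes were called, both highest without A10-FMT 2. For A10-FMT against Con-FMT, 0 as reported, it was 0 to 2641, again highest without A10-FMT 2, and 12 without Con 1. With array weights it was 8287, and the 1 gene called in the reported comparison with Con, Kap, was then among them. A fit of the Con-FMT comparison on its own libraries, also chosen after seeing the data, gave 0.

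With the replicate number as a block, 3 genes and 2 listed genes were called. Whether the numbers pair the samples is not known, so this is not a test of pairing.

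The direction turned, or for Hba-a1 the difference became 0, under at least 1 alternative for 38 named genes, none of which had passed. Klrk1, Fkbp5, Prss2, Try4 and Reg1 turned only with array weights, the fit whose estimate did not converge. After quantile normalization the log2 differences were 0.00453 for Tlx1, 0.0109 for Spic, 0 for Hba-a1, 0.0132 for Prdm1, 0.0282 for Ifit2, 0.0637 for Fosl2, 0.0547 for Jun, -0.0406 for C1qa, -0.00318 for C1qc, -0.00847 for Rpl4, 0.0696 for Cpt1a, 0.0466 for Cpt2 and 0.0658 for Apoa1. After median centring they were 0.13 for Spic, 0.10 for Hbb-bs, 0.13 for Vcam1, 0.0228 for Jun, 0.0896 for Rpl5, 0.12 for Cpt1a, 0.0418 for Cpt2, 0.0182 for Akt1 and 0.13 for Apoa1. With a pseudocount of 0.1 it was 0.0328 for Apoa1. Without a library, they ranged from -0.33 to 0.00547 for Tlx1, -0.14 to 0.0679 for Spic, -1.42 to 1.48 for Hbb-bs, -0.19 to 0.12 for Vcam1, -0.62 to 0.25 for Ccl21a, -0.77 to 0.0982 for H2-Ab1, -0.12 to 0.32 for Ifit1, -0.44 to 0.0442 for Ifit3, -0.62 to 0.0188 for Tsc22d3, -0.0633 to 0.27 for Per1, -0.50 to 1.25 for Fos, -0.64 to 0.33 for Jun, -1.11 to 0.36 for Hspa1a, -1.26 to 0.34 for Hspa1b, -0.26 to 0.39 for Hspa8, -0.0535 to 0.0932 for C1qa, -0.00997 to 0.0761 for C1qc, -0.0599 to 0.25 for Ndufa1, -0.13 to 0.27 for Ndufa2, -0.24 to 0.14 for Cpt1a, -0.0924 to 0.25 for Irs2, -0.69 to 1.12 for Alb, -1.09 to 0.52 for Apoa1, -0.41 to 1.29 for Apoa2 and -0.77 to 1.65 for Reg2. With array weights they were 0.14 for Spic, 1.71 for Hbb-bs, 0.0564 for Klrk1, -0.0281 for Ifit1, 0.0632 for Ifit2, 0.12 for Ifit3, -0.12 for Fkbp5, 0.17 for Hspa1a, 0.18 for Hspa1b, -0.0617 for Hspa8, -0.0935 for Ndufa2, 0.33 for Cpt1a, -1.27 for Alb, -0.70 for Apoa2, -0.87 for Prss2, -0.52 for Try4, -1.03 for Reg1 and -1.07 for Reg2. The cause was not tested. Values under 1 RPKM rest on few reads, and no counting interval could be set on them.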
